A study of Rattus norvegicus with 13 samples.

Results

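The proteasome genes were taken as all probe sets with a single platform symbol beginning with Psma, Psmb, Psmc, Psmd, Psme, Psmf or Psmg, without regard to their values. The rule gave 46 of the 15923 probe sets on the array, for 43 of the 10411 genes with a probe set of their own. Of these, 44 probe sets for 41 genes belong to subunits, regulators or assembly factors of the proteasome, and the other 2 (Psmc3ip and Psme3ip1) only share the start of the symbol. By role there were 7 probe sets of the alpha ring and 6 of the constitutive beta ring, 3 of immunoproteasome catalytic subunits, 8 of the base and 7 of the lid of the regulatory particle, 5 of activators, 1 of an inhibitor and 7 of assembly factors. A further 6 probe sets carry a proteasome symbol among several symbols and were left out by the rule, so no value is given for Psmb6 or Psme3. All 46 probe sets passed the filter on dim probe sets.

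The samples were glomeruli, the capillary tufts that filter blood in the kidney, of untreated Lewis-Hsd rats aged 18 weeks, measured on 13 Affymetrix Rat 230A arrays. In the sieved group (titled iron, n = 4), iron oxide was perfused into one kidney through the aorta, the glomeruli were collected by sieve and magnet, and their RNA was not amplified. In the groups LCM800 (n = 5) and LCM20 (n = 4), glomeruli were cut by laser from 10 µm sections of frozen kidney and their RNA was amplified in 2 rounds. The labels describe both laser groups with the same protocol of about 800 cross-sections, so what the number 20 in the title counts is not stated, and they mention anti-Thy1.1 rats in the extraction text and embryos in a description although every sample is given as untreated rat kidney. The titles call the replicates biological, and the study's design text says that one kidney of a rat went to laser cutting and the opposite one to sieving, but no label ties a replicate number to a rat or says which arrays share one, so p-values measure the spread between these samples. Isolation and amplification changed together between the sieved and both laser groups, so their effects cannot be told apart, and both comparisons with the sieved group share its 4 arrays.

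The proteasome is the protease that degrades ubiquitin-tagged proteins in the cytosol and nucleus. Its barrel-shaped 20S core is a stack of rings of alpha subunits, which gate the entrance, and beta subunits, some of which carry the proteolytic sites. The 19S regulatory particle caps the barrel: its base holds ATPases that unfold substrates, and its lid holds the scaffold and the enzyme that removes ubiquitin. Interferon induces alternative catalytic subunits, which form the immunoproteasome and favour peptides for MHC class I presentation. In the glomerulus, podocytes are long-lived cells whose protein degradation has been studied in kidney disease.

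Values are MAS5 signals in linear intensity units, with the same trimmed mean of 500.1 on every array, and changes are differences of mean log2(signal + 65.29) ± SE from limma, positive where the first-named group is higher. The pseudocount of 65.29 makes changes of dim probe sets smaller than the ratio of their signals, and signals of different probe sets are not comparable levels. Of 5 podocyte markers tested, 2 rose and 2 fell in LCM800, and 2 rose and 1 fell in LCM20, and their summed signal was 15198 to 36231 in sieved, 28209.7 to 39378 in LCM800 and 25018 to 39888 in LCM20 arrays. The rises were Synpo and Nphs1, and the falls were Ptpro in both laser groups and Podxl in LCM800. In the laser arrays the sum was mostly Synpo, with means of 20285 in LCM800 and 18798 in LCM20 against 6417 in sieved. Podxl had means of 4126, 4528 and 7195 in the same order. Of 4 endothelial markers tested, 2 (Kdr and Egfl7) rose and 0 fell in each laser group. Of 4 mesangial markers tested, 2 (Thy1 and Itga8) rose and 0 fell in LCM800, and 0 rose and 0 fell in LCM20. The summed signal of 7 proximal tubule markers was 37148 to 74141 in sieved, 9358 to 16606 in LCM800 and 7139.6 to 14449.6 in LCM20 arrays, and all 7 fell in both comparisons with the sieved group. Of 5 distal tubule and collecting duct markers, 1 rose and 2 fell in LCM800, and 0 rose and 3 fell in LCM20. The rise was Aqp2, by 1.32 ± 0.41 in LCM800 (limma adjusted p = 0.0131). The log2 signal of the 3′ minus the 5′ β-actin control was 0.53 to 0.57 in sieved, 1.71 to 4.01 in LCM800 and 1.33 to 2.29 in LCM20 arrays. For the Gapdh control it was 0.36 to 0.66, 0.68 to 2.02 and −0.22 to 3.06, where LCM20 overlapped sieved. The part of these tissue and RNA differences in the proteasome values was not tested. In such samples of mixed cell types, fewer cells of a type and less RNA per cell cannot be told apart. Sieved replicate 3 stood apart, with a proximal tubule sum of 37148 against 63294 to 74141 in the other sieved arrays, and it was the highest sieved array for 31 of the 46 proteasome probe sets (67.4%), against 36.3% of all tested probe sets.

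Proteasome genes moved in both directions between laser-cut and sieved glomeruli, with Psma2, Psmc3 and Psmd8 among those lower and Psmb5, Psmb4, Psmb8, Psme2 and Psmc2 among those higher in both laser groups. Of the 13 constitutive core probe sets, 3 rose and 7 fell in LCM800, and 2 rose and 5 fell in LCM20. Of the 5 falls in LCM20, only Psma2 passed with each array left out in turn. In LCM800 against sieved, 11 of the 46 probe sets rose and 15 fell (limma, adjusted p under 0.05), which is 26 called where 51.9% of all 11106 tested probe sets were called, 31.8% higher and 20.1% lower. In LCM20 against sieved, 10 rose and 10 fell, 20 in all, where 45.3% of all tested probe sets were called (26.2% higher, 19.2% lower). The shares of the 46 were 56.5% and 43.5%, near the background in both comparisons. By direction they were 23.9% higher and 32.6% lower in LCM800, and 21.7% each way in LCM20. The median change of the 46 was 0.11 in LCM800 and 0.07 in LCM20, beside 0.22 and 0.17 over all tested probe sets. The arrays of the compared groups did not overlap for 26 of the 46 in LCM800 (background 42.8%) and 22 in LCM20 (background 43.8%).

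Side by side, 9 probe sets were higher and 9 lower in both laser groups, none passed in opposite directions, and 18 passed in neither comparison. Another 2 rose and 6 fell in LCM800 without passing in LCM20, and 1 rose and 1 fell in LCM20 without passing in LCM800. Without sieved replicate 3 the counts were 14 higher and 14 lower in LCM800 and 12 higher and 7 lower in LCM20. Of all tested probe sets, 49.3% and 43.7% were then called. The LCM20 count fell from 20 to 12 without sieved replicate 1 and to 13 without sieved replicate 2. Over all tested probe sets it fell too, from 5035 to 4120 and 4115. The LCM20 falls among the 46 numbered 4 and 5 without these arrays. They numbered 6 without sieved replicate 4, LCM20 replicate 1 or LCM20 replicate 3. Over all tested probe sets the LCM20 falls numbered 2127 in the main fit. They numbered 1763 without sieved replicate 1 or 2, 1778 without sieved replicate 4, 2018 without LCM20 replicate 1 and 2032 without LCM20 replicate 3. With each array left out in turn, 23 of the 26 LCM800 calls and 12 of the 20 LCM20 calls passed in all fits. Over every alternative that tested the probe set, 17 and 12 did. With the lowest 60% left out, only 21 of the 26 and 15 of the 20 were tested. The plot of changes by role shows each probe set with both changes.

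**Figure D1:**
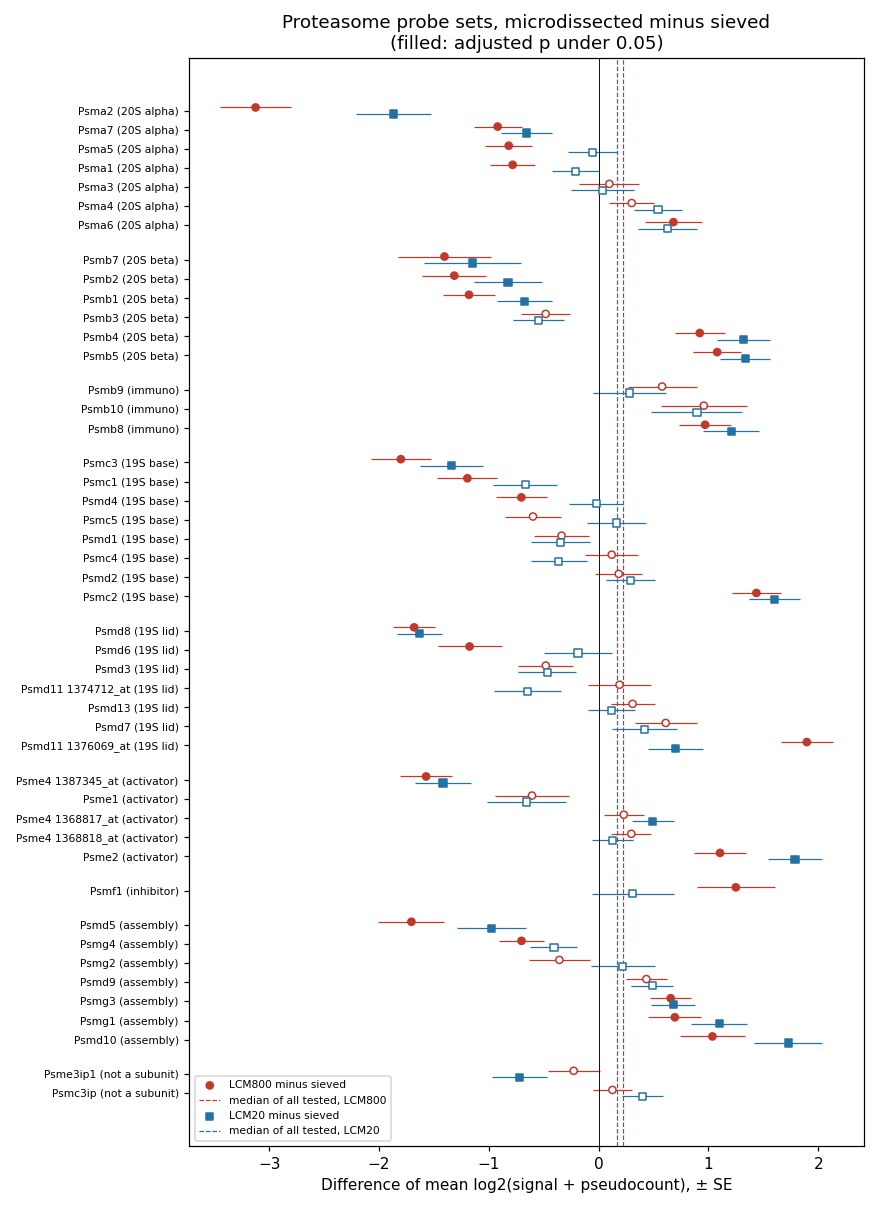
Change of each of the 46 proteasome probe sets in LCM800 (circles) and LCM20 (squares) against sieved glomeruli, as the difference of mean log2(signal + pseudocount) ± SE, grouped by role; filled symbols passed adjusted p under 0.05 and dashed lines mark the median of all tested probe sets. Most constitutive core subunits lie left of the dashed lines, while Psmb4, Psmb5, Psmb8, Psme2 and Psmc2 lie right of them in both comparisons.

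More probe sets of the alpha ring fell than rose. Of its 7 probe sets, 1 rose and 4 fell in LCM800, and 0 rose and 2 fell in LCM20, with median changes of −0.78 and −0.06. That was 14.3% higher and 57.1% lower in LCM800, beside 31.8% and 20.1% of all tested probe sets. In LCM20 the shares were 0% and 28.6%, beside 26.2% and 19.2%. Psma2, a gate-forming alpha subunit, had signals of 941, 967, 1354 and 805 in sieved replicates 1 to 4. They were 8.05, 13.4, 51.5, 144 and 126 in LCM800 replicates 1 to 5 and 264, 241, 116 and 328 in LCM20 replicates 1 to 4. Every laser array was below every sieved array, and 3 of the 5 LCM800 arrays were below the pseudocount, so the fall is compressed by the pseudocount. Psma2 fell by 3.12 ± 0.32 in LCM800 (adjusted p = 2.59e-06) and fell by 1.87 ± 0.34 in LCM20 (adjusted p = 0.00043). Psma7, another alpha subunit, had mean signals of 1358 ± 121 (SD, n = 4) in sieved, 704 ± 194 (SD, n = 5) in LCM800 and 851 ± 193 (SD, n = 4) in LCM20 arrays. It fell by 0.92 ± 0.22 in LCM800 (adjusted p = 0.00262) and fell by 0.66 ± 0.23 in LCM20 (adjusted p = 0.0297), where leaving out sieved replicate 1, 2 or 3 or LCM20 replicate 1 or 3 lost the call (adjusted p up to 0.0934). In LCM800, Psma5 fell by 0.82 ± 0.21 (lost without LCM800 replicates 1, 2 and 3, −0.58, adjusted p = 0.0795, within 0.000127 to 0.0795) and Psma1 fell by 0.78 ± 0.20, and they had changes of −0.06 ± 0.23 and −0.21 ± 0.22 in LCM20, which did not pass. Psma6 was the one alpha subunit that rose, by 0.68 ± 0.26 in LCM800 (adjusted p = 0.0356), with sieved replicate 3 at 3001 inside the LCM800 range. The LCM800 call was lost without sieved replicate 1, 2 or 4 or LCM800 replicate 2 or 3 and in 3 more alternatives, among them equal array medians (0.55, adjusted p = 0.127), over which adjusted p ran from 0.000216 to 0.174. In LCM20 the Psma6 change was 0.63 ± 0.27 and did not pass (limma adjusted p = 0.0695), though it passed in 5 of 18 alternatives there (adjusted p from 0.0077 to 0.156). Psma3 and Psma4 passed in neither comparison, though Psma4, at 0.54 in LCM20 (adjusted p = 0.0515), passed in 5 alternatives there (adjusted p from 0.00627 to 0.171).

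The constitutive beta ring split. Of its 6 probe sets, 2 rose and 3 fell in LCM800, and the counts were 2 and 3 in LCM20. Both comparisons thus had 33.3% higher and 50% lower. The shares of all tested probe sets were 31.8% and 20.1% in LCM800 and 26.2% and 19.2% in LCM20. The rises were Psmb5, the chymotrypsin-like catalytic subunit, and Psmb4, a structural subunit, and the falls were Psmb7, the trypsin-like catalytic subunit, and the structural subunits Psmb2 and Psmb1. Psmb5 signals were 2225, 2345, 1957 and 1941 in the sieved arrays. They were 3771, 5412, 6129, 3991 and 3818 in LCM800 and 5426, 4278, 6125 and 6108 in LCM20 arrays. All laser arrays were above all sieved arrays, and the mean was 2.18 times the sieved mean in LCM800 and 2.59 times in LCM20. The change was 1.08 ± 0.22 (adjusted p = 0.000723) and 1.34 ± 0.23 (adjusted p = 0.000242). Psmb4 signals were 2171, 2204, 2926 and 2306 in sieved, 2940.3, 4331, 5657, 5259 and 5259 in LCM800 and 5768, 6028, 5081 and 7482 in LCM20 arrays, again with no overlap between sieved and laser arrays. Psmb4 rose by 0.92 ± 0.23 (adjusted p = 0.00353) and rose by 1.32 ± 0.24 (adjusted p = 0.000459).

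Psmb7 signals were 1461, 1557, 909 and 962 in sieved and 581, 447, 359.9, 537 and 217 in LCM800 arrays, which did not overlap. In LCM20 they were 495, 182, 364 and 1659.98, with replicate 4 above every sieved array and the other 3 below them. Psmb7 fell by 1.40 ± 0.42 in LCM800 (adjusted p = 0.0111) and fell by 1.15 ± 0.44 in LCM20 (adjusted p = 0.0449), and the LCM20 call was lost without sieved replicate 1, 2 or 4, without LCM20 replicate 1, 2 or 3 and in 2 more alternatives (adjusted p from 0.00118 to 0.163). Without LCM20 replicate 2 its LCM20 change was −0.75. Psmb2 signals were 1396, 1273, 1379 and 1176 in sieved arrays. They were 312, 338, 386, 930.2 and 671 in LCM800 and 658, 700.3, 472 and 1129 in LCM20 arrays, below every sieved array in both groups. Psmb2 fell by 1.32 ± 0.29 (adjusted p = 0.00157) and fell by 0.83 ± 0.31 (adjusted p = 0.0382). The Psmb2 call in LCM20 was lost without any 1 sieved array, without LCM20 replicate 1, 2 or 3 and with equal array medians (adjusted p from 0.00304 to 0.119), and the LCM800 change was −0.68 without LCM800 replicates 1, 2 and 3 (adjusted p = 0.0689). Psmb1 fell by 1.18 ± 0.24 in LCM800 and fell by 0.67 ± 0.25 in LCM20 (adjusted p = 0.0387), where replicate 4 at 2048 lay inside the sieved range. The LCM20 call was lost without any 1 sieved array, without LCM20 replicate 1 or 3 and in 2 more alternatives (adjusted p from 0.00709 to 0.133). Psmb3 passed in neither comparison. Over the 13 constitutive core probe sets together, 3 rose and 7 fell in LCM800, 2 rose and 5 fell in LCM20, and the median changes were −0.78 and −0.21. The falls were 53.8% and 38.5% of the 13, beside 20.1% and 19.2% lower over all tested probe sets. Of the 5 in LCM20 only Psma2 passed in every alternative that tested it, and it was not tested with the lowest 60% left out.

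**Figure D2:**
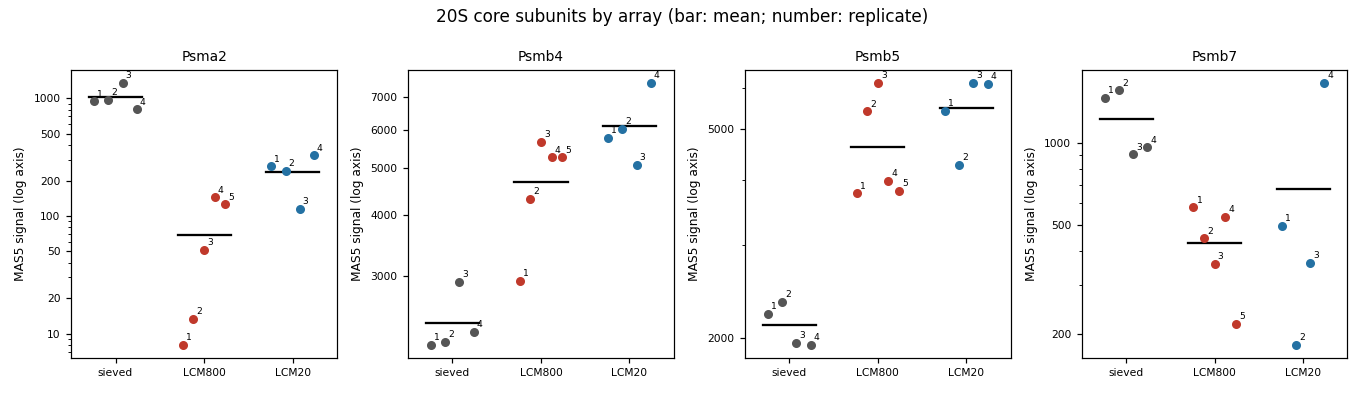
MAS5 signal on a log axis by array for Psma2, Psmb4, Psmb5 and Psmb7 in sieved (n = 4), LCM800 (n = 5) and LCM20 (n = 4) glomeruli; points are arrays labelled by replicate number and bars are means of the signals. Psmb4 and Psmb5 lie higher in every laser array than in any sieved array, Psma2 lies lower in every laser array, and LCM20 replicate 4 is the one laser array with Psmb7 above the sieved arrays.

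Psmb5 and Psmb2, which moved in opposite directions, both carry the core letters of the antioxidant response element (TGACNNNGC, both strands searched) upstream of their start site, so their windows are shown, with the match in capitals and 5′ to 3′ on the gene's strand. The letters are from RefSeq promoters on GRCr8, at chr15:32047421-32047449 on the minus strand for Psmb5 and chr5:144254980-144255008 on the plus strand for Psmb2, and come from the reference strain, not from Lewis rats. The match is a description of letters and not a binding site.
Psmb5: cgtgaagctgTGACGTCGCggcgttgccc
Psmb2: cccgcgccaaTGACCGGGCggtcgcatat

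The interferon-inducible group holds the catalytic subunits Psmb8, Psmb9 and Psmb10, which replace Psmb5, Psmb6 and Psmb7 in newly built cores, and Psme1 and Psme2, the subunits of the 11S activator cap. Psmb8 and Psme2 rose in both laser groups, and the other 3 passed in neither. Blood cells are rich in these subunits. Of 6 leukocyte markers tested, 3 rose and 1 fell in LCM800 and 2 rose and 1 fell in LCM20, and their summed signal of 5507 to 9612 in sieved, 2704 to 5321 in LCM800 and 1840.2 to 5036 in LCM20 arrays was mostly Cd74, the one marker that fell (mean 7491 in sieved, 2276 in LCM800 and 1598 in LCM20). The rises were Laptm5 and Cd3d in both laser groups and Cd68 in LCM800. The part of leukocytes in the values below was not tested. The median change of the 3 catalytic subunits was 0.96 in LCM800 and 0.89 in LCM20. Psmb8 signals were 191, 194, 329.6 and 222 in sieved arrays. They were 409, 556, 372, 697 and 584 in LCM800 and 558, 408, 661 and 934 in LCM20 arrays. No laser array was as low as the highest sieved array, replicate 3, and the mean was 2.24 and 2.73 times the sieved mean. Psmb8 rose by 0.97 ± 0.24 (adjusted p = 0.0034) and rose by 1.21 ± 0.25 (adjusted p = 0.00125).

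Psmb10 signals were 127, 151, 519.9 and 242 in sieved arrays. They were 856, 901, 558, 346 and 200.1 in LCM800 and 286, 483, 541 and 700.5 in LCM20 arrays. Sieved replicate 3 lay among the laser arrays and LCM800 replicate 5 among the sieved arrays. The change of 0.96 ± 0.39 in LCM800 did not pass (adjusted p = 0.0513), nor did that of 0.89 ± 0.41 in LCM20 (adjusted p = 0.0883). Without sieved replicate 3 both passed, at 1.29 (adjusted p = 0.0125) and 1.23 (adjusted p = 0.0232). The LCM800 change also passed without LCM800 replicate 4 (1.08) and without replicate 5 (1.23). Over all alternatives its adjusted p ran from 7.13e-05 to 0.753. Psmb9 signals were 149, 141, 487 and 162 in sieved, 442, 330.3, 482, 235 and 276 in LCM800 and 212, 314, 159 and 445 in LCM20 arrays. Sieved replicate 3 was above every laser array, the other 3 sieved arrays were below every LCM800 array, and LCM20 replicate 3 lay among them. The Psmb9 changes were 0.58 ± 0.31 (adjusted p = 0.133) and 0.28 ± 0.33 (adjusted p = 0.511). Without sieved replicate 3 the LCM800 change was 0.92 and passed (adjusted p = 0.0127, within 0.000498 to 0.658 over its alternatives).

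Psme2 signals were 484, 541, 956 and 524 in sieved arrays. They were 998, 1171, 1664, 1540.00 and 1626 in LCM800 and 1823, 2055, 2507 and 2695 in LCM20 arrays. The 3 groups did not overlap, in the order sieved, LCM800 and LCM20, although sieved replicate 3 lay close to the lowest LCM800 array. Psme2 rose by 1.10 ± 0.24 in LCM800 (adjusted p = 0.00121) and rose by 1.79 ± 0.25 in LCM20 (adjusted p = 4.7e-05), and the mean was 2.24 and 3.63 times the sieved mean. Its partner Psme1 had signals of 1325, 1366, 2933 and 1888 in sieved, 880.2, 1069, 1687, 1288 and 967 in LCM800 and 990.2, 599, 1021 and 2414 in LCM20 arrays, which overlapped. The Psme1 changes were −0.61 ± 0.34 (adjusted p = 0.143) and −0.66 ± 0.36 (adjusted p = 0.142), opposite in sign to those of Psme2. Without LCM20 replicate 4 the Psme1 change in LCM20 was −1.02 and passed (adjusted p = 0.0167, within 0.0167 to 0.403 over its alternatives).

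**Figure D3:**
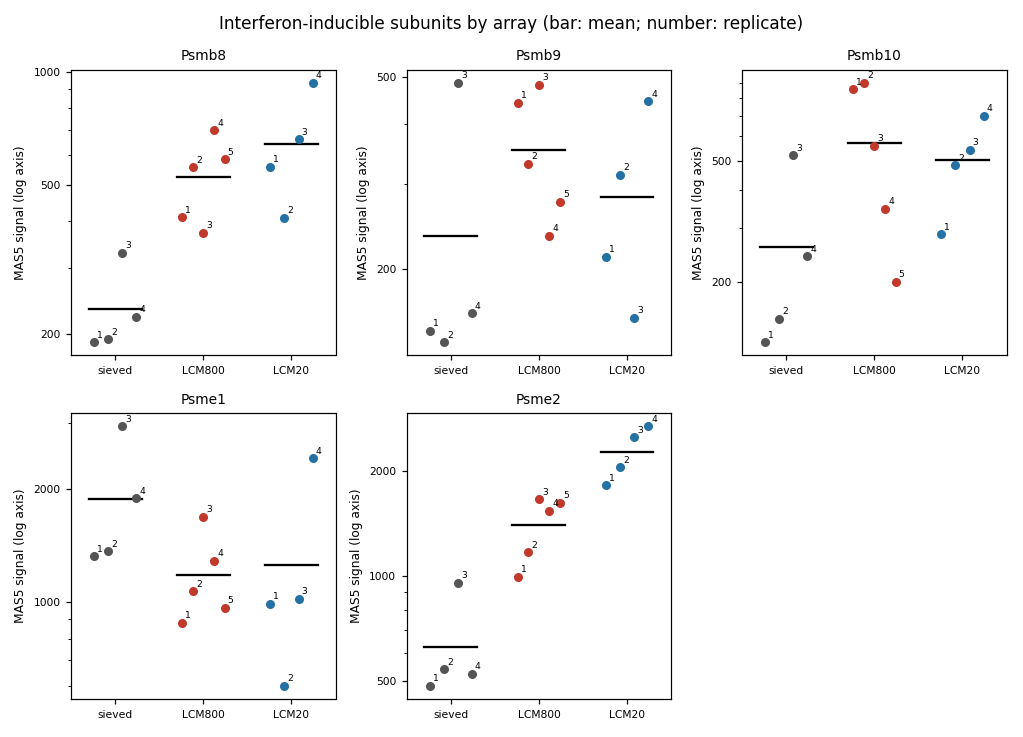
MAS5 signal on a log axis by array for Psmb8, Psmb9, Psmb10, Psme1 and Psme2 in sieved (n = 4), LCM800 (n = 5) and LCM20 (n = 4) glomeruli; points are arrays labelled by replicate number and bars are means of the signals. Psmb8 and Psme2 are higher in every laser array than in any sieved array, and sieved replicate 3 is the highest sieved array for all 5 genes.

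To compare an inducible subunit with the constitutive one it replaces, the log2 difference of the pair was taken within each array and compared between groups by exact two-sided permutation tests, 6 in all. The difference Psmb10 minus Psmb7 was 2.36 higher in LCM800 than in sieved arrays (exact permutation p = 0.00794, adjusted p = 0.0476), which is the smallest p that 5 against 4 arrays allow. It ran from −0.55 to 0.91 in LCM800 and from −2.99 to −0.74 in sieved arrays. In LCM20 it was 2.04 higher than in sieved arrays, which did not pass (exact permutation p = 0.0571, adjusted p = 0.171). Of this pair, Psmb7 fell by 1.40 in LCM800 and 1.15 in LCM20. The Psmb10 changes of 0.96 and 0.89 did not pass (limma adjusted p = 0.0513 and 0.0883). The difference Psmb8 minus Psmb5 moved from its sieved mean by −0.11 in LCM800 (exact permutation p = 0.738) and by −0.13 in LCM20 (exact permutation p = 0.686), adjusted p = 0.886 for both. Both genes of that pair rose in each comparison. The pair of Psmb9 and Psmb6 was not analysed here, as Psmb6 has no probe set with a single symbol.

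Psmb10 and Psme2 carry the core letters of the interferon-stimulated response element (GAAANNGAAA, both strands searched) upstream of their start site, and their windows are shown because both belong to the interferon-inducible group. The letters are from RefSeq promoters on GRCr8, 5′ to 3′ on the gene's strand with the matches in capitals, at chr19:50743293-50743375 on the minus strand for Psmb10, with 2 matches, and chr15:33052785-33052814 on the minus strand for Psme2.
Psmb10: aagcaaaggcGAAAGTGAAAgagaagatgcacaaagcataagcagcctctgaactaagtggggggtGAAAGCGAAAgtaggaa
Psme2: cctggagagtGAAAGCGAAAgctggggctg
Of the 43 genes, 41 had a promoter in the table, and the 250 bases before the start site were searched for 3 motifs, chosen after the values were seen. GAAANNGAAA was in 5 of 41 (12.2%; Psma4, Psmb3, Psmb10, Psmd7 and Psme2), beside 3.41% of all 33469 promoters. TGACNNNGC was in 6 of 41 (14.6%; Psma3, Psmb2, Psmb5, Psmd1, Psmd9 and Psme4), beside 10.1% of all. The core of the gamma-interferon activated site, TTCNNNGAA, was in 3 of 41 (7.32%; Psmb8, Psmd3 and Psmd7), beside 7.67% of all. Among the 5 genes with GAAANNGAAA, Psme2 was the one that passed the expression test in either comparison.

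In the base of the regulatory particle, Psmc2 rose and Psmc3 fell in both laser groups. Of 8 probe sets, 1 rose and 3 fell in LCM800, and 1 rose and 1 fell in LCM20, with medians of −0.47 and −0.18. That was 12.5% higher and 37.5% lower in LCM800, beside 31.8% and 20.1% of all tested probe sets. In LCM20 it was 12.5% each way, beside 26.2% and 19.2%. Psmc2 and Psmc3 are ATPases of the ring that threads substrates into the core. Psmc2 signals were 1084, 1099, 1929.95 and 1195 in sieved arrays. They were 2792, 3919, 3977, 4144 and 3354 in LCM800 and 3565, 3829, 4165 and 4751 in LCM20 arrays. All laser arrays were above the sieved arrays, of which replicate 3 was the highest. Psmc2 rose by 1.44 ± 0.22 (adjusted p = 7.76e-05) and rose by 1.60 ± 0.23 (adjusted p = 6.46e-05). Psmc3 signals were 719, 672, 1183 and 826 in sieved, 219.7, 314, 226, 167 and 87.5 in LCM800 and 196, 262, 271 and 483 in LCM20 arrays, with no overlap between sieved and laser arrays. Psmc3 fell by 1.80 ± 0.27 (adjusted p = 6.93e-05) and fell by 1.34 ± 0.29 (adjusted p = 0.00152). Psmc1, a further ATPase of the ring, fell by 1.20 ± 0.27 in LCM800 (adjusted p = 0.002) and had a change of −0.67 ± 0.29 in LCM20 (adjusted p = 0.0696). The ubiquitin receptor Psmd4 fell by 0.70 ± 0.23 in LCM800 (adjusted p = 0.0188; lost without sieved replicate 3, −0.53, adjusted p = 0.0706, within 0.00949 to 0.0706) and had −0.02 ± 0.25 in LCM20. The scaffold subunits Psmd1 and Psmd2 and the ATPases Psmc4 and Psmc5 passed in neither, with changes from −0.60 to 0.29. Psmc5 in LCM800, at −0.60 (adjusted p = 0.0587), was −0.99 without LCM800 replicates 4 and 5 (adjusted p = 0.000867) and −0.0084 without replicates 1, 2 and 3, and it passed in 7 of 21 alternatives (adjusted p from 0.000867 to 0.982).

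In the lid, 1 of 7 probe sets rose and 2 fell in LCM800, and 1 rose and 1 fell in LCM20, with medians of 0.19 and −0.19. Its shares were 14.3% higher and 28.6% lower in LCM800, beside 31.8% and 20.1% of all tested probe sets. They were 14.3% each way in LCM20, beside 26.2% and 19.2%. Psmd8, a small lid subunit, had signals of 876, 863, 955 and 799.95 in sieved arrays. They were 166, 353, 206, 248 and 193 in LCM800 and 265, 179.97, 254 and 260.03 in LCM20 arrays, below all sieved arrays in both groups. Psmd8 fell by 1.68 ± 0.19 (adjusted p = 6.45e-06) and fell by 1.63 ± 0.20 (adjusted p = 1.85e-05). Psmd6, a lid scaffold subunit, had signals of 1304, 1337, 1432 and 1059 in sieved, 339, 325, 453, 1192 and 650.4 in LCM800 and 1294, 1141, 1139 and 908 in LCM20 arrays. LCM800 replicates 1, 2 and 3 were lower than replicates 4 and 5. Psmd6 fell by 1.18 ± 0.29 in LCM800 (adjusted p = 0.0034), a call that was lost without LCM800 replicates 1, 2 and 3 (−0.50, adjusted p = 0.132, within 6.35e-06 to 0.132). In LCM20 its change was −0.19 ± 0.31 (adjusted p = 0.639). Psmd3, Psmd7 and Psmd13 passed in neither comparison. In LCM800, Psmd7 (0.61) passed in 5 of 21 alternatives, Psmd3 (−0.48) in 3 and Psmd13 (0.31) in 2, among them Psmd7 without sieved replicate 3 (0.78, adjusted p = 0.0394, within 0.000277 to 0.676) and Psmd3 without LCM800 replicates 1, 2 and 3 (−1.004, adjusted p = 0.00602, within 0.00602 to 0.627).

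Psmd11, the lid subunit that braces the particle against the core, had 2 probe sets that differed. Probe set 1376069_at had signals of 937, 887, 1163 and 1017 in sieved arrays. They were 4761, 4727, 4689, 3009 and 2777 in LCM800 and 1778, 1219, 2243 and 1540.4 in LCM20 arrays. The 3 groups did not overlap, with LCM800 the highest and LCM20 between. It rose by 1.90 ± 0.24 in LCM800 (adjusted p = 1.31e-05) and rose by 0.70 ± 0.25 in LCM20 (adjusted p = 0.0323), where leaving out sieved replicate 1, 2 or 4 or LCM20 replicate 1 or 3, or quantile normalization, lost the call (adjusted p from 0.00196 to 0.1). Probe set 1374712_at had signals of 1394, 1366, 1638 and 1465 in sieved, 2709.5, 2615, 1738, 957 and 1107 in LCM800 and 1121, 656, 1039 and 894 in LCM20 arrays. LCM800 replicates 1, 2 and 3 were above the sieved arrays, replicates 4 and 5 below them, as were all LCM20 arrays. Its changes were 0.19 ± 0.29 (adjusted p = 0.599) and −0.65 ± 0.31 (adjusted p = 0.0952). The difference between the 2 probe sets within arrays, one of 9 such exact two-sided permutation tests on genes with several probe sets, rose by 1.71 in LCM800 (exact permutation p = 0.00794, adjusted p = 0.0357). In LCM20 the difference was 1.34 larger than in sieved arrays and did not pass after adjustment (exact permutation p = 0.0286, the smallest possible; adjusted p = 0.0643).

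Psme4, a nuclear activator that opens the core without ATP, has 3 probe sets, which moved differently. Probe set 1368817_at had signals of 779, 805, 693 and 822 in sieved arrays. They were 826, 847, 920.4, 843 and 1192 in LCM800 and 1314, 1157, 1094 and 929 in LCM20 arrays, above all sieved arrays in both groups. Its change was 0.23 ± 0.18 in LCM800 (adjusted p = 0.303), and it rose by 0.49 ± 0.19 in LCM20 (adjusted p = 0.0457), a call lost without any 1 sieved array, without LCM20 replicate 1, 2 or 3 and in 3 more alternatives (adjusted p from 0.0119 to 0.118). Probe set 1368818_at had changes of 0.30 ± 0.18 and 0.13 ± 0.19 and passed in neither, though without LCM800 replicates 1, 2 and 3 the former was 0.56 and passed (adjusted p = 0.0441, within 0.0441 to 0.595). Probe set 1387345_at had signals of 397, 581, 382 and 527 in sieved, 90.1, 132, 136, 166 and 61.3 in LCM800 and 199, 73, 171 and 115 in LCM20 arrays. It fell by 1.57 ± 0.24 in LCM800 (adjusted p = 7.51e-05) and fell by 1.42 ± 0.25 in LCM20 (adjusted p = 0.000362), so 2 probe sets of this gene passed in opposite directions in LCM20. The difference of 1368817_at minus 1387345_at within arrays was 1.80 higher in LCM800 (exact permutation p = 0.00794, adjusted p = 0.0357) and 1.91 higher in LCM20 (exact permutation p = 0.0286, adjusted p = 0.0643) than in sieved arrays. Which part of the transcript each probe set reads was not analysed here.

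Psmf1, which binds the core and inhibits it in the test tube, had signals of 316, 268, 417 and 199 in sieved arrays. They were 1300.3, 1431, 1051, 389 and 357 in LCM800 and 384, 315, 333 and 498 in LCM20 arrays. LCM800 replicates 1, 2 and 3 were above every other array, while replicates 4 and 5 lay within the range of the sieved arrays. Psmf1 rose by 1.25 ± 0.35 in LCM800 (adjusted p = 0.00801), and without replicates 1, 2 and 3 its change was 0.30 and did not pass (adjusted p = 0.364, within 1.37e-05 to 0.364 over its alternatives). In LCM20 the change was 0.31 ± 0.37 (adjusted p = 0.514).

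**Figure D4:**
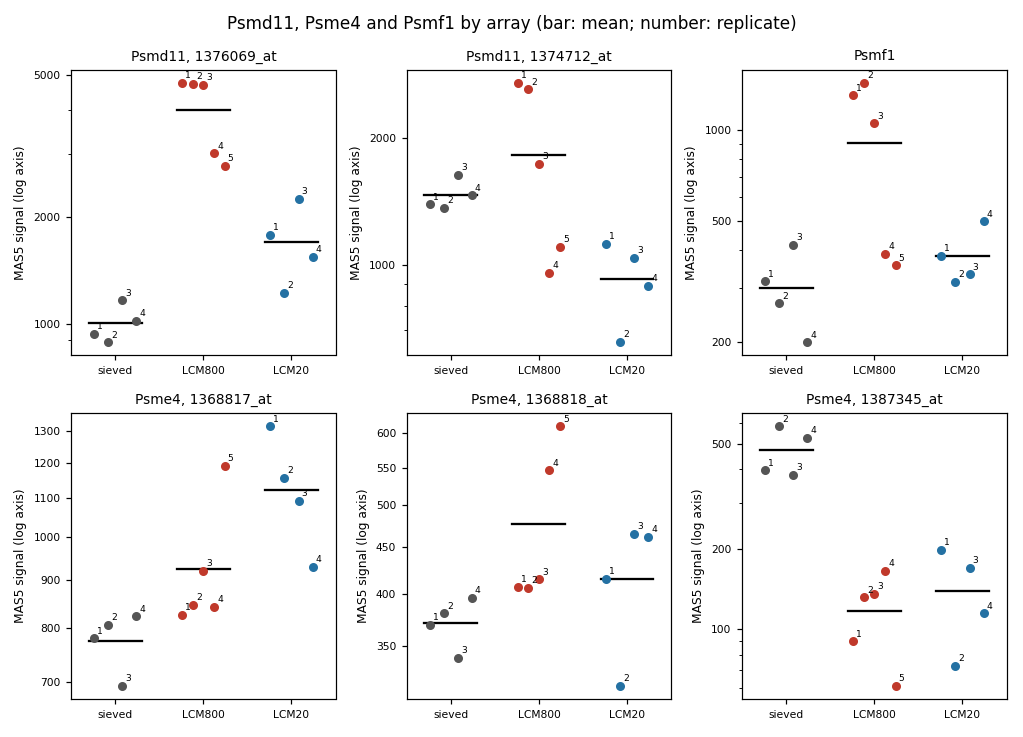
MAS5 signal on a log axis by array for both Psmd11 probe sets, Psmf1 and the 3 Psme4 probe sets in sieved (n = 4), LCM800 (n = 5) and LCM20 (n = 4) glomeruli; points are arrays labelled by replicate number and bars are means of the signals. LCM800 replicates 1, 2 and 3 are above replicates 4 and 5 for Psmd11 and Psmf1, and Psme4 probe set 1387345_at is lower in every laser array while 1368817_at is higher.

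Among the 7 assembly factors, 3 rose and 2 fell in LCM800, and 3 rose and 1 fell in LCM20, with medians of 0.43 and 0.49. The shares were 42.9% higher and 28.6% lower in LCM800, beside 31.8% and 20.1% of all tested probe sets. They were 42.9% and 14.3% in LCM20, beside 26.2% and 19.2%. Psmd10 (gankyrin), which chaperones the ATPase ring, had signals of 550.03, 644, 1166 and 679 in sieved arrays. They were 1705, 1318, 1614, 2335 and 1102 in LCM800 and 1514, 4017, 2537 and 2803 in LCM20 arrays, where sieved replicate 3 lay above the lowest LCM800 array and every LCM20 array was above the sieved ones. Psmd10 rose by 1.04 ± 0.29 (adjusted p = 0.00801) and rose by 1.73 ± 0.31 (adjusted p = 0.000376). Psmd5, another chaperone of the base, had signals of 902, 803, 695 and 898 in sieved, 148, 77.4, 172, 476 and 312 in LCM800 and 342, 465, 317 and 431 in LCM20 arrays, and every laser array was below the sieved arrays. Psmd5 fell by 1.71 ± 0.30 (adjusted p = 0.000258) and fell by 0.98 ± 0.32 (adjusted p = 0.0199), the latter lost without sieved replicate 1 or LCM20 replicate 3 (adjusted p up to 0.0534). The core chaperone Psmg1 rose by 0.69 ± 0.24 in LCM800 (adjusted p = 0.0248), where leaving out sieved replicate 1, 2 or 4 or LCM800 replicate 4, and 3 more alternatives, lost the call (adjusted p from 0.00206 to 0.13), and rose by 1.10 ± 0.25 in LCM20 (adjusted p = 0.00263). Psmg3, a further core chaperone, rose by 0.66 ± 0.19 and 0.68 ± 0.20, and without LCM800 replicates 1, 2 and 3 the former was 0.30 and did not pass (adjusted p = 0.236, within 4.23e-05 to 0.236). Its partner Psmg4 fell by 0.70 ± 0.20 in LCM800 (adjusted p = 0.0091; without LCM800 replicates 1, 2 and 3, −0.63 and adjusted p = 0.0581, within 0.00168 to 0.0581) and had −0.41 ± 0.21 in LCM20. Psmg2 and Psmd9 passed in neither comparison, though Psmd9, at 0.49 in LCM20 (adjusted p = 0.0503), passed in 6 of 18 alternatives there (adjusted p from 0.0129 to 0.127).

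Of the probe sets that share only the start of the symbol, Psmc3ip, a factor of meiotic recombination, passed in neither comparison (0.12 ± 0.18 and 0.40 ± 0.19). Psme3ip1, which encodes a nuclear partner of an activator, had −0.23 ± 0.24 in LCM800 and fell by 0.72 ± 0.25 in LCM20 (adjusted p = 0.0283), a call lost without sieved replicate 1, 2 or 4 or LCM20 replicate 2 (adjusted p up to 0.0916).

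Between the laser groups, none of the 46 proteasome probe sets passed the test in LCM20 against LCM800 (limma), where 0.153% of all tested probe sets did, 0.072% higher and 0.081% lower. At an unadjusted p under 0.05 there were 13, beside 17.6% of all tested, and 4 (Psme2, Psma5, Psmd4 and Psmd11 1376069_at) had arrays that did not overlap, beside 3.84%. The median change was 0.24 for the 46, 0.26 for the constitutive core and −0.06 over all tested probe sets. Psmb5, Psmb7, Psmb8, Psmb9, Psmb10 and Psme1 had changes of 0.26 ± 0.22, 0.26 ± 0.42, 0.24 ± 0.24, −0.30 ± 0.31, −0.06 ± 0.39 and −0.05 ± 0.34, none past the test. The largest of the inducible group was Psme2 at 0.68 ± 0.24 (adjusted p = 0.173). Psmf1 had −0.94 ± 0.35 (adjusted p = 0.199) and the Psme4 probe sets 0.27 ± 0.18, −0.17 ± 0.18 and 0.15 ± 0.24. The exact permutation tests of the pairs gave −0.32 for Psmb10 minus Psmb7 (exact permutation p = 0.587) and −0.02 for Psmb8 minus Psmb5 (exact permutation p = 0.929).

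The count of 0 changed when LCM800 replicates 4 and 5 were left out. Without both, 14 of the 46 passed, 10 higher and 4 lower in LCM20, where 23.4% of all tested probe sets were called, and without replicates 1, 2 and 3 none of the 46 and 0.207% of all passed. Without replicate 4 alone there were 6 (4.54% of all tested) and without replicate 5 alone 2 (1.89%). No label sets LCM800 replicates 4 and 5 apart from the others. For genes such as Psmd6 and Psmf1 they lay away from replicates 1, 2 and 3, so leaving them out narrows the LCM800 spread. The p-values below therefore describe LCM20 against replicates 1, 2 and 3 alone and are not a test of LCM20 against LCM800. With replicates 4 and 5 left out, the lid subunit Psmd6 was higher in LCM20 by 1.44 ± 0.20 (adjusted p = 0.000408), the assembly factor Psmd5 by 1.22 ± 0.22 (adjusted p = 0.00171) and the ATPase Psmc5 by 1.16 ± 0.20 (adjusted p = 0.00138). Psma2 was higher too, with no size given because its 3 remaining LCM800 arrays were all below the pseudocount, and Psma5 was higher by 0.92 ± 0.22 (adjusted p = 0.00854). Psmb2, Psme2, Psmg2, Psmg1 and Psma1 were also higher, by 0.65 to 0.92. Lower in LCM20 were Psmf1, at −1.57 ± 0.23 (adjusted p = 0.000557), both probe sets of Psmd11, at −1.48 ± 0.22 (adjusted p = 0.000546) and −1.28 ± 0.23 (adjusted p = 0.0015), and Psme3ip1, at −0.80 ± 0.21 (adjusted p = 0.0139). These genes are named after their values were seen.

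Other genes of the ubiquitin and proteasome pathway, from a list without the 46 probe sets, included more falls than rises. Of 40 listed genes 28 were tested, with 1 higher and 9 lower in LCM800 (median −0.31) and 3 higher and 11 lower in LCM20 (median −0.48), beside the medians of 0.22 and 0.17 over all tested probe sets. In LCM800 35.7% of the 28 were called (3.57% higher, 32.1% lower), where 51.9% of all tested were (31.8% higher, 20.1% lower). In LCM20 10.7% were higher and 39.3% lower, beside 26.2% and 19.2%. Vcp, the ATPase that extracts ubiquitin-tagged proteins, fell by 2.65 ± 0.28 (adjusted p = 3.42e-06) in LCM800 and fell by 1.45 ± 0.30 (adjusted p = 0.00105) in LCM20. Ddi2, the protease that activates the proteasome gene regulator Nfe2l1, fell by 2.13 ± 0.23 (adjusted p = 3.76e-06) and, in LCM20, fell by 2.45 ± 0.24 (adjusted p = 2.5e-06). Skp1, the adaptor of cullin ubiquitin ligases, fell by 2.08 ± 0.26 (adjusted p = 1.38e-05) in LCM800. In LCM20, Nrdc, a metallopeptidase, fell by 1.96 ± 0.39 (adjusted p = 0.000812) and the autophagy receptor Sqstm1 fell by 1.67 ± 0.30 (adjusted p = 0.000347). Ufd1, a cofactor of Vcp, rose in both, by 1.14 ± 0.34 (adjusted p = 0.0113) and 1.31 ± 0.36 (adjusted p = 0.00805), and in LCM20 the proteasome adaptor Ecpas rose by 0.72 ± 0.25 (adjusted p = 0.0303) and the ligase subunit Rbx1 by 0.67 ± 0.26 (adjusted p = 0.0467). Pomp, the maturation factor of the core, fell by 0.75 ± 0.20 (adjusted p = 0.00636) and, in LCM20, fell by 0.76 ± 0.21 (adjusted p = 0.00914). None of the 28 passed in LCM20 against LCM800.

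Of 11 genes of MHC class I antigen processing, 7 were tested. Of these, 3 rose and 4 fell in LCM800, and 2 rose and 3 fell in LCM20, with medians of −0.92 and −0.93, beside 0.22 and 0.17 over all tested probe sets. As shares of the 7 these are 42.9% higher and 57.1% lower in LCM800, beside 31.8% and 20.1% of all tested, and 28.6% and 42.9% in LCM20, beside 26.2% and 19.2%. Erap1, the peptidase that trims peptides in the endoplasmic reticulum, rose by 1.74 ± 0.32 (adjusted p = 0.000339) in LCM800 and by 2.24 ± 0.33 (adjusted p = 8.45e-05) in LCM20, and the chaperone Canx rose by 1.10 ± 0.19 (adjusted p = 0.000208) and 1.18 ± 0.20 (adjusted p = 0.000225). Irf1, a transcription factor of the interferon response, rose by 0.74 ± 0.25 (adjusted p = 0.0222) in LCM800. B2m, the light chain of class I, fell by 1.80 ± 0.35 (adjusted p = 0.000569) in LCM800, where the peptide-loading gene Pdia3 fell by 1.72 ± 0.24 (adjusted p = 3.59e-05) and Tapbp fell by 0.97 ± 0.25 (adjusted p = 0.00467). In LCM20, Pdia3 fell by 2.43 ± 0.25 (adjusted p = 3.96e-06), Tapbp fell by 1.46 ± 0.27 (adjusted p = 0.000429) and the chaperone Calr fell by 1.06 ± 0.33 (adjusted p = 0.0159). None of the 7 passed in LCM20 against LCM800.

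Within groups, the median SD of log2 values over the 46 proteasome probe sets was 0.19 in sieved, 0.36 in LCM800 and 0.31 in LCM20 arrays, beside 0.24, 0.39 and 0.36 over all tested probe sets.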

How the data were processed

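The deposited values are MAS5 signals, in intensity units on a linear scale, which the authors made from Affymetrix arrays per the submitters' processing notes; the MAS5 version and scan details are not given in the sources used here. They hold 15923 probe sets on 13 arrays, and every array has a mean of 500.1 once its top 2% and bottom 2% are trimmed, so they were not normalized again. The number of arrays limits the precision.

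Values were taken as log2(signal + 65.29), the pseudocount being the 20th percentile of all signals. Leaving out 57 controls and the dimmest 30% by mean log2 gave 11106 tested probe sets. All 3 groups entered 1 fit without covariate in limma 3.58.1 under R 4.3.3 (lmFit, then eBayes with an intensity trend), with Benjamini-Hochberg adjustment at 0.05 over everything tested. The script was tested on simulated data. Pairs of probe sets were compared within arrays by exact two-sided permutation tests in Python 3.11.15. A gene in a list was represented by its brightest tested probe set with 1 symbol. Symbols came from the platform table, where 12783 probe sets had 1 symbol, 312 several and 2771 none.

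The members, the lists and the tests were chosen with earlier results of these data known, so no pattern here is independent support for those results. Named were the catalytic and regulatory genes (Psmb5, Psmb7 to Psmb10, Psme1, Psme2, Psme4 and Psmf1), per comparison and role the 2 largest rises and falls past the test, any gene with probe sets called in opposite directions, and per list the 3 largest rises and falls past the test; other genes are named to account for the members, and Pomp after its values were seen. Same-numbered samples did not deviate together (correlations of their deviations −0.24 to 0.23), and no label says that a number marks a rat, although kidneys were paired by design, so no pairing was used. The highest correlation between 2 arrays was 0.984, and no array was treated as a copy. Alternatives were quantile normalization, equal medians, other pseudocounts, other filters, no intensity trend, array weights, a replicate block, only the 2 groups compared, mean of all probe sets of a gene, and arrays left out.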

Additional observations from a re-analysis of the deposited data

Results flagged for a closer look

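Within the groups, 81 sets of arrays (27 named probe sets in 3 groups) were examined for an array far from the others of its group, where the gap to the nearest array exceeds Dixon's critical value for the group's range, and 7 were found; chance gives about 1 in 20. In 6 of the 7 the array was sieved replicate 3, the highest of its group: Psme2 at 956, Psmc2 at 1929.95, Psma6 at 3001, Psmb9 at 487, Psmg4 at 1102 and Psmc1 at 930.4. The same array had the highest podocyte marker sum of the sieved arrays (36231, others 15198 to 19914) and the highest endothelial sum (7709, others 2366 to 3425). Of the leukocyte markers, it had the lowest signals of Cd74 (4607, others 8196 to 8878) and Cd3d (35.4, others 55.7 to 87.8). It had the highest of Cd68 (193), Laptm5 (257) and Cd53 (299), and for Ptprc it had 115, below sieved replicate 4 at 125. The part of these tissue differences in the flagged values was not tested. The remaining flagged array was LCM20 replicate 2, the lowest of its group for Psmd8 at 179.97. Without it the Psmd8 change in LCM20 against sieved was −1.53 (limma adjusted p = 0.000113, within 9.4e-07 to 0.000186 over its alternatives).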

How the results depend on the processing

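Of 60 results for single named probe sets, 34 kept their direction and their side of the threshold in all alternatives that tested them. Equal array medians moved the median of all tested probe sets by −0.11 in LCM800 minus sieved and by 0.10 in LCM20 minus LCM800. The proteasome probe sets then had 9 rises and 17 falls in LCM800 and 10 and 8 in LCM20. Over all 11106 tested probe sets there were 3041 rises and 2486 falls in LCM800 and 2929 and 2179 in LCM20. Counts that moved by over 1.5 times were the LCM20 falls with the lowest 60% left out (6, where fewer members are tested), the LCM800 rises with array weights (17) and, in LCM20 minus LCM800, the count of 0: 1 lower without the trend, 8 with array weights (5 higher, 3 lower) and 14 without LCM800 replicates 4 and 5 (10 and 4); the cause was not tested. Over all tested probe sets, 4458 rose in LCM800 with array weights, against 3533 in the main fit. In LCM20 minus LCM800, 17 were called in the main fit, 22 without the trend, 859 with array weights and 2594 without LCM800 replicates 4 and 5. With the lowest 60% left out, 1301 of all 6346 tested fell in LCM20. With 1 array left out the counts ran from 24 to 30 in LCM800 (9 to 14 higher, 14 to 16 lower), 12 to 22 in LCM20 (8 to 12 higher, 4 to 12 lower) and 0 to 6 between the laser groups (0 to 4 higher, 0 to 2 lower). Over all tested probe sets they ran from 4932 to 5730, 4115 to 4965 and 0 to 504 in the same order. The replicate number as a block gave 27 and 19 called members against sieved and 0 between the laser groups, although no label says that a number marks a rat. Over all tested probe sets the block gave 5452, 4874 and 0 calls.

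Psmb8 minus Psmb5, near 0 throughout, changed sign without a pseudocount (0.058 in LCM800 and 0.061 in LCM20 against sieved, 0.0024 between the laser groups) and, between the laser groups, after quantile normalization (0.13). With 1 array left out it ran from −0.26 to 0.098 in LCM800, −0.26 to 0.046 in LCM20 and −0.23 to 0.13 between them. Psmb10 minus Psmb7 then ran from 2.06 to 2.81 in LCM800 and −0.72 to 0.055 between the laser groups, and no LCM800 value passed after adjustment with fewer arrays, where the smallest exact permutation p was 0.0286 for 4 against 4 and 0.0179 for 5 against 3 arrays (adjusted p = 0.171 and 0.107), so the number of arrays fixed the loss. The comparisons of probe sets of one gene, whose alternatives were chosen after seeing the data, lost their LCM800 calls at the same smallest p (adjusted p = 0.0643): Psmd11 ran from 1.60 to 1.80 in LCM800 and 1.26 to 1.40 in LCM20, and Psme4 1368817_at minus 1387345_at from 1.59 to 1.92, 1.72 to 2.00 and, between the laser groups, −0.079 to 0.32. Psme4 1368817_at minus 1368818_at ran from −0.11 to 0.0077, 0.25 to 0.50 and 0.31 to 0.57. Without LCM20 replicate 4 these 3 differences passed in LCM20 against sieved, and the last also between the laser groups (adjusted p = 0.0429, exact permutation). For Psmd11 and for Psme4 1368817_at minus 1387345_at, the exact permutation p with all arrays was already the smallest possible, 0.0286. That is also the smallest for 4 against 3 arrays, so the adjustment over the 9 tests, not a smaller exact p, moved them past the threshold.

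None of the single-gene results that changed sign was past the test; all were between the laser groups, and the cause was not tested. With equal array medians Psme1 was 0.066 and Psmb10 0.052. Without LCM800 replicates 1, 2 and 3, Psmb8 was −0.049, Psmb9 0.050, Psmb10 0.73 and Psmf1 0.015; without LCM800 replicates 4 and 5, Psme4 1368818_at was 0.0048. With 1 array left out, Psme1 ran from −0.41 to 0.22, Psmb10 from −0.34 to 0.15 and Psmb7 from −0.28 to 0.65. Averaging the probe sets of each gene left the pairs as they were, since each of these genes has 1 probe set.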
